A study of Mus musculus with 4 samples.

Results

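The genes described here are 10 surface and reporter markers of mouse hematopoietic stem cells (HSCs): Slamf1, Cd48, Cd34, Ly6a, Procr, Fgd5, Ctnnal1, Esam, Cd27 and Cd9. They were chosen by name as the rows that carry these symbols, and all 10 were found among 19354 listed genes. All 10 also averaged at least 1 CPM, the reads of a gene scaled to the total of its library, over the 4 libraries and so were among the 15895 genes tested.

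RNA-Seq of sorted HSCs was compared between Mx1-Cre; Id2+/+ mice, which kept the transcription regulator ID2, and Mx1-Cre; Id2 fl/fl mice treated to delete it (Id2Δ/Δ). Both genotypes carried the Mx1-Cre transgene, whose interferon-inducible promoter is active in many cell types, and both received pIpC, an RNA mimic that induces interferon. Cells of 14 Id2+/+ and 15 Id2Δ/Δ mice, 8 to 16 weeks old, were pooled 2 weeks after pIpC in 2 experiments, and each genotype had 2 libraries, lettered A and B. The labels do not say whether a letter stands for an experiment or a separate pool of mice. The p-values thus measure the spread between the 2 libraries of each genotype, which cannot be assigned to mice or to experiments. The sort gate was lineage-, Sca-1+ and c-Kit+ (LSK), FLT3-, CD48- and CD150+.

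HSCs are rare bone marrow cells that renew themselves and give rise to all blood lineages, and no single antigen separates them from their progeny. CD150, the product of Slamf1, is kept on long-term HSCs, whereas CD48 appears as cells become multipotent and committed progenitors. Sca-1 (Ly6a), EPCR (Procr), ESAM, CD27 and CD9 enrich for primitive cells in different combinations, CD34 is low on the surface of long-term HSCs of adult mice, and Fgd5 and Ctnnal1 loci drive fluorescent reporters that mark HSCs. ID2 is a helix-loop-helix protein without a DNA-binding region that binds E proteins and keeps them from their DNA site, the E-box.

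Because E-boxes are the sites that E proteins read, the sequences before the starts of the pair of SLAM genes that define the gate and of Fgd5, which differed between the genotypes with the smallest p-value of the 10, are shown. They are RefSeq sequences on GRCm38.p6 that end before the first base of the GENCODE gene. Capitals mark each CANNTG, the general E-box, which reads the same on both strands.
Slamf1, chr1:171766882-171767126, plus strand: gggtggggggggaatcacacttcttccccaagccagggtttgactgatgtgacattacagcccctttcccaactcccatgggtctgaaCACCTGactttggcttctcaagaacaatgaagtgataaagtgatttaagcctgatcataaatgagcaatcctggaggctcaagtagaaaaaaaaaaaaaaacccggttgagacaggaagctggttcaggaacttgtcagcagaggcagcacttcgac
Cd48, chr1:171681742-171681991, plus strand: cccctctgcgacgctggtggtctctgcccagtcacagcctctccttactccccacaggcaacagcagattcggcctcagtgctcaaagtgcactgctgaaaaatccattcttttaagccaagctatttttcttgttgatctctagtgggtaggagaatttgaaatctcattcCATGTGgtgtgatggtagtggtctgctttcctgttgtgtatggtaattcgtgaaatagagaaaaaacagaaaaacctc
Fgd5, chr6:91978715-91978877, plus strand: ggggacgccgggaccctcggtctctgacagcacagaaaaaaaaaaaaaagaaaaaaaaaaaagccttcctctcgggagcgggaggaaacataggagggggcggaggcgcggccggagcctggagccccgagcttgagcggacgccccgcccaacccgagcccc
The Slamf1 window held CACCTG, which is CAGGTG on the other strand, 162 bases before the RefSeq start, and the Cd48 window held CATGTG 78 bases before it. The 163 bases shown for Fgd5 held no CANNTG, nor did the full 250 bases before its RefSeq start.

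RefSeq windows were found for 8 of the 10 genes, and 5 of the 8 held CANNTG in the 250 bases before the start, a word found in 66.2% of 32851 such windows of all genes. Among its forms, which CANNTG includes, CAGCTG was in 2 of the 8 windows and in 13.0% of all windows, and CAGGTG was in 2 of the 8 and in 17.2% of all. ACGTG, the core of the hypoxia response element, was in 0 of the 8 and in 16.6% of all windows. GATAA, the core read by GATA factors, was in 1 of the 8 and in 22.6% of all, and CGGAA, the core read by ETS factors, was in 3 of the 8 and in 25.2% of all. All words were searched on both strands, and a match describes letters, not a bound site.

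The deleted gene checked the labels. The Id2+/+ libraries held 93 and 98 Id2 reads and the Id2Δ/Δ libraries held 0 and 0, where a count of 0 allows up to 3 reads, or 0.169 and 0.159 CPM. Depths estimated from the values were 14200000 and 15700000 reads in Id2+/+ and 17800000 and 18800000 reads in Id2Δ/Δ libraries. Across all genes, limma called 0 of 15895 at a Benjamini-Hochberg adjusted p under 0.05 (0% called), and 742 had an unadjusted p under 0.05. The libraries also differed by letter. All 9 tested genes of the neutrophil list were lower in both B libraries than in both A libraries, and the list summed to 282 and 171 CPM in Id2+/+ A and B and to 262 and 142 CPM in Id2Δ/Δ A and B. Of the markers that label the cells, Slamf1, Procr, Ly6a and Esam were present in every library, and so were Hlf and Mecom, transcription factors of HSCs. Flt3 (5.47 to 5.63 log2 CPM) and Cd48 (47 to 120 reads), whose proteins the gate excludes, were also present in every library. Presence of an RNA thus does not by itself identify the cells. Hlf measured 9.14 and 9.23 log2 CPM in Id2+/+ and 8.84 and 8.93 in Id2Δ/Δ. Mecom measured 8.21 and 8.18 against 7.99 and 7.96. Both were thus lower in both Id2Δ/Δ libraries, as were 15.8% of all tested genes, and neither was called.

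Most of the HSC markers were abundant, and Cd48 was the lowest. Ordered by level per length (CPM per kb of merged exon, averaged on the log2 scale), Ly6a came first at 86.5 to 112 CPM per kb, followed by Esam at 60.9 to 83.1, Cd9 at 49.2 to 56.6, Cd27 at 41.8 to 53.2, Cd34 at 43.6 to 51.0 and Procr at 35.0 to 41.5 CPM per kb. Below a gap came Fgd5 at 11.05 to 21.1, Slamf1 at 8.44 to 10.97, Ctnnal1 at 4.57 to 7.07 and Cd48 at 2.22 to 6.93 CPM per kb. In 6 of the 9 pairs of neighbours every library of the upper gene lay above every library of the lower one. The other 3 pairs, Cd9 with Cd27, Cd27 with Cd34, and Ctnnal1 with Cd48, overlapped. Merged exons count every annotated transcript of a gene, so a gene with a long alternative exon is placed too low.

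**Figure D1:**
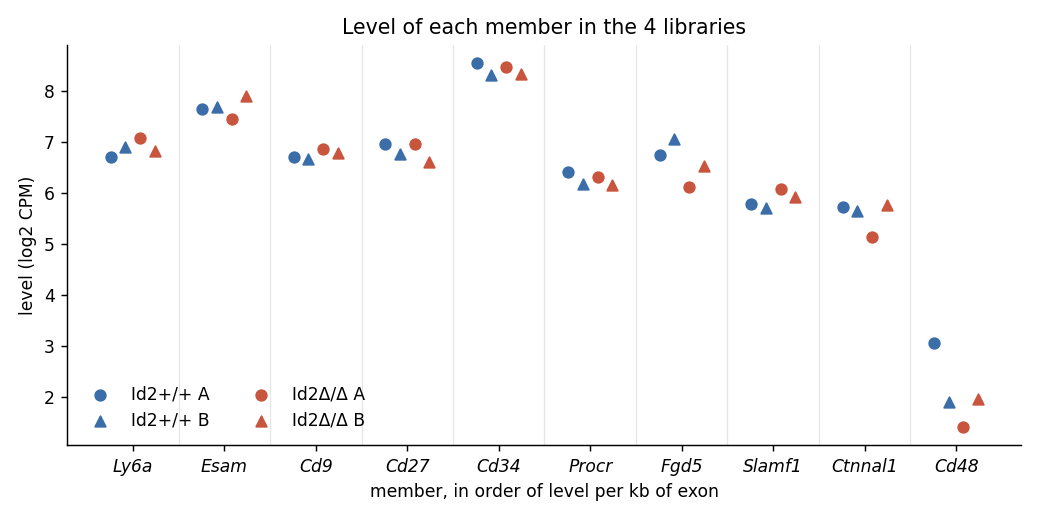
Level of each of the 10 genes (y axis, log2 CPM) in the 4 libraries (blue, Id2+/+, and red, Id2Δ/Δ, with circles for A and triangles for B), ordered along the x axis by level per kb of exon. Each point is 1 library. Fgd5 lies lower in both Id2Δ/Δ libraries, and Cd48 lies far below the others, with Id2+/+ A above the remaining 3 libraries.

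No member passed the test between genotypes (0 of 10, beside 0% of all genes). Fgd5 was the one member with an unadjusted p under 0.05, and it was lower in Id2Δ/Δ HSCs, as were 2.95% of all tested genes at that threshold. Slamf1 and Cd9 were higher in both Id2Δ/Δ libraries than in both Id2+/+ libraries, which makes 2 of 10 members beside 19.0% of all genes. Fgd5 was lower in both, which makes 1 of 10 beside 15.8% of all genes. The shares of separated members are near these backgrounds. The median difference of the 10 members was -0.05 (log2, Id2Δ/Δ minus Id2+/+), and that of all tested genes was 0.01. In RNA from pooled cells, fewer cells with a transcript and less transcript per cell cannot be told apart.

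**Figure D2:**
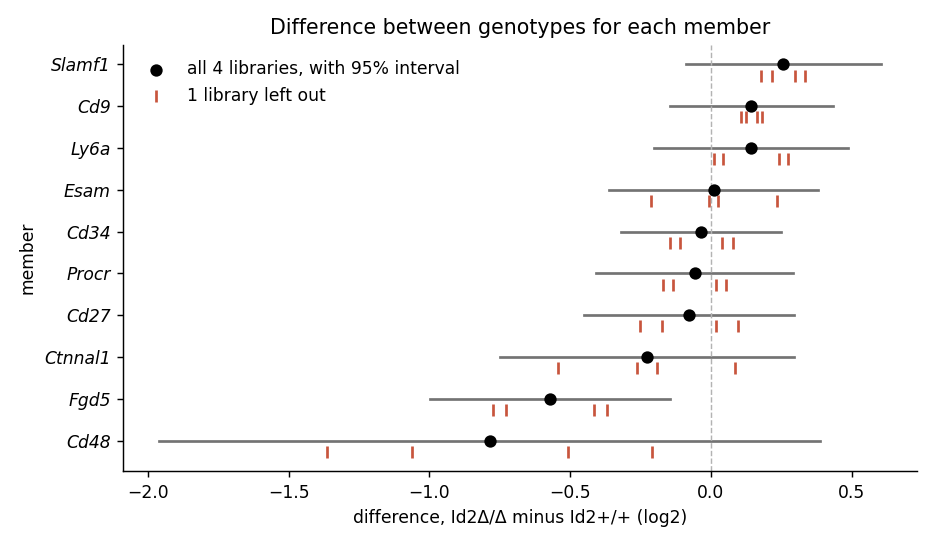
Difference between genotypes (x axis, log2, Id2Δ/Δ minus Id2+/+) for each of the 10 genes (y axis). Black points are the fit to all 4 libraries with its 95% confidence interval, and red ticks are the same difference with each library left out in turn. The interval of Fgd5, -0.998 to -0.14, is the one that does not reach 0.

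Among the SLAM receptors, CD150 is the antigen the gate selects for and CD48 the one it selects against. Slamf1 (ENSMUSG00000015316.11, chr1:171767127-171801184, plus strand) measured 5.78 and 5.70 log2 CPM in Id2+/+ A and B and 6.08 and 5.92 in Id2Δ/Δ A and B. Both Id2Δ/Δ libraries were above both Id2+/+ libraries, but the difference of 0.26 ± 0.15 (log2, SE, 95% confidence interval -0.09 to 0.61) did not pass (limma, adjusted p = 0.910). The interval covers anything from a small decrease to an increase of 0.61.

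Cd48 (ENSMUSG00000015355.13, chr1:171682009-171705258, plus strand) lies 61.9 kb from Slamf1 with no protein-coding gene between. Its RNA measured 3.04 and 1.89 log2 CPM in Id2+/+ A and B and 1.40 and 1.96 in Id2Δ/Δ A and B, from 120, 59, 47 and 67 reads. Id2+/+ A stood above the other 3 libraries, and its 95% Poisson interval of 7.003 to 10.1 CPM did not reach those of Id2+/+ B (2.87 to 4.86 CPM), Id2Δ/Δ A (1.94 to 3.52 CPM) or Id2Δ/Δ B (2.76 to 4.52 CPM). These intervals cover counting error only, and they use the estimated depth rather than the normalization of the deposited levels. The groups overlapped, and the difference was -0.79 ± 0.50 (log2, SE, 95% confidence interval -1.96 to 0.39, limma adjusted p = 0.910). Without Id2+/+ A the difference was -0.21, and without Id2+/+ B it was -1.36. The neutrophil list was high in both A libraries, whereas Cd48 was highest in Id2+/+ A and lowest in Id2Δ/Δ A.

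Within a library, Slamf1 exceeded Cd48 by 2.74 and 3.81 log2 units in Id2+/+ A and B and by 4.67 and 3.96 in Id2Δ/Δ A and B. Both Id2Δ/Δ libraries thus had a larger gap, with means of 4.32 ± 0.50 against 3.28 ± 0.76 (SD, n = 2 each), and a two-sided exact permutation test gave p = 0.333, the smallest it can give with 2 libraries against 2. Per kb of exon, Slamf1 was 1.29-fold and 2.71-fold above Cd48 in Id2+/+ A and B and 4.93-fold and 3.01-fold above it in Id2Δ/Δ A and B. The gap in Id2+/+ A was the smallest of the 4, and leaving that library out moved the difference between genotypes from 1.04 to 0.51 (log2).

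**Figure D3:**
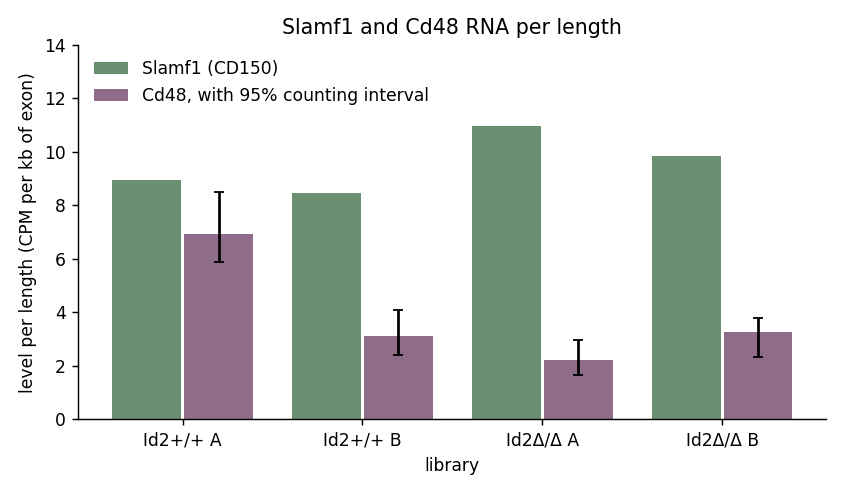
Levels per length (y axis, CPM per kb of merged exon, linear scale from 0) of Slamf1 (green bars) and Cd48 (purple bars) in each of the 4 libraries (x axis). Each bar is 1 library. Error bars on Cd48 are 95% Poisson intervals of its reads, scaled by the estimated depth, and cover counting error only. Bars are the deposited normalized levels, so an interval need not be centred on its bar. Cd48 reached 6.93 CPM per kb in Id2+/+ A and 2.22 to 3.27 in the other 3 libraries.

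The other SLAM receptors gave no called gene. Cd244, the receptor that binds CD48, had 108 and 60 reads in Id2+/+ A and B and 34 and 143 reads in Id2Δ/Δ A and B. It was thus high in Id2+/+ A and low in Id2Δ/Δ A, as Cd48 was, but unlike Cd48 it was highest in Id2Δ/Δ B. Cd84 was the most abundant of the family at 7.26 and 7.07 log2 CPM in Id2+/+ and 7.07 and 6.88 in Id2Δ/Δ. All 4 tested SLAM genes that are not members were lower in the mean of Id2Δ/Δ, with a median difference of -0.20 (log2). They ranged from -0.02 ± 0.22 (SE) for Ly9 to -0.44 ± 0.70 for Cd244, and in 0 of the 4 did the groups separate. Of all 15895 tested genes, 7673 were lower in the mean of Id2Δ/Δ, with a median difference of 0.01. The shares that separated were 19.0% upward and 15.8% downward.

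Sca-1 and c-Kit are the antigens that give the LSK gate its name. Ly6a (ENSMUSG00000075602.10, chr15:74994877-74998031, minus strand), which encodes Sca-1, a GPI-anchored protein induced by interferon, measured 6.70 and 6.90 log2 CPM in Id2+/+ A and B and 7.08 and 6.81 in Id2Δ/Δ A and B. The groups overlapped and the difference was 0.14 ± 0.15 (log2, SE, 95% confidence interval -0.20 to 0.49, limma adjusted p = 0.917). Ly6e, the most abundant gene of its family, was at 9.003 and 9.02 in Id2+/+ and at 9.33 and 9.003 in Id2Δ/Δ. Both were highest in Id2Δ/Δ A, whereas Ly6c2, the other tested gene of the family, was highest in Id2+/+ A, at 3.08 log2 CPM against 2.33 in Id2Δ/Δ A. Of 14 interferon response genes, 0 were called, and their median difference was -0.03 (log2). Among them 1 separated the genotypes upward and 1 downward, beside 19.0% and 15.8% of all tested genes. The one that separated upward, Isg15, measured 2.70 and 3.07 in Id2+/+ and 3.85 and 3.24 in Id2Δ/Δ (difference 0.67 ± 0.33, SE), which did not pass.

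Kit, the receptor for stem cell factor and the other defining antigen of the gate, measured 11.08 and 10.93 log2 CPM in Id2+/+ and 10.19 and 10.55 in Id2Δ/Δ. Its difference of -0.63 ± 0.13 (log2, SE) did not pass (limma, adjusted p = 0.910), although its unadjusted p was under 0.05. Flt3, the receptor that the gate excludes, was at 5.63 and 5.62 in Id2+/+ and 5.63 and 5.47 in Id2Δ/Δ, a difference of -0.07 ± 0.16. Cells were chosen by the protein, so a level of these RNAs does not measure the share of cells that carry it.

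The reporter genes were Fgd5 and Ctnnal1. Fgd5 (ENSMUSG00000034037.14, chr6:91978878-92076004, plus strand) encodes an exchange factor that activates the GTPase CDC42 and is known from endothelial cells as well as from HSCs. It measured 6.74 and 7.05 log2 CPM in Id2+/+ A and B and 6.12 and 6.52 in Id2Δ/Δ A and B, that is 107, 132, 69.5 and 92.1 CPM. Both Id2Δ/Δ libraries were below both Id2+/+ libraries, and within each genotype A was below B. The difference of -0.57 ± 0.18 (log2, SE, 95% confidence interval -0.998 to -0.14) corresponds to a level 1.49-fold higher in Id2+/+ and did not pass (limma, adjusted p = 0.910).

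Leaving out 1 library at a time kept Fgd5 lower in Id2Δ/Δ, at -0.77 to -0.37 (log2). Without Id2Δ/Δ A it was -0.37, the value nearest 0, and its unadjusted p was no longer under 0.05 without Id2Δ/Δ A or without Id2+/+ B. Over the 4 libraries Fgd5 spanned 0.93 log2 units, whereas 2452 genes of like abundance, within 0.5 log2 units of its mean, spanned a median of 0.31. Long genes were on the whole lower in Id2Δ/Δ, with a median of -0.08 in the longest quintile and 0.10 in the shortest. Fgd5 has 6292 bases of merged exon. That is between the median lengths of quintile 4 (5526 bases, median difference -0.0046) and of the longest quintile (9114 bases). After a correction for length the difference was -0.54.

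Endothelial genes were examined beside Fgd5. Of 10 on the list, 8 had values, and they summed to 320 and 358 CPM in Id2+/+ A and B and to 324 and 349 CPM in Id2Δ/Δ A and B, mostly from Tie1, a receptor kinase also present in HSCs, at 7.70, 7.93, 7.61 and 7.98 log2 CPM. Stab2, a scavenger receptor of sinusoidal endothelium, had 15 and 11 reads in Id2+/+ and 0 and 1 in Id2Δ/Δ. Stab1 had 61 and 86 reads in Id2+/+ and 150 and 120 in Id2Δ/Δ, and Flt4, the receptor of lymphatic endothelium, had 46 and 25 against 7 and 22. These low endothelial genes differed in both directions, and their part in the Fgd5 difference was not tested.

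Fgd5 was the most abundant of the 6 FGD genes. Of the 5 others, 1 separated the genotypes upward (Fgd3, 4.84 and 4.93 log2 CPM in Id2+/+, 5.19 and 5.28 in Id2Δ/Δ) and 1 downward (Fgd4, 5.82 and 5.77 against 5.70 and 5.18), and 0 were called. Of all tested genes, 19.0% separated upward and 15.8% downward. Fgd3 and Fgd4 were chosen after their values were seen. The gene of the GTPase itself, Cdc42, was at 8.78 and 8.69 in Id2+/+ and 8.77 and 8.71 in Id2Δ/Δ with a difference of 0.01 ± 0.10 (log2, SE).

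Ctnnal1 (ENSMUSG00000038816.14, chr4:56810935-56865188, minus strand) encodes α-catulin, a relative of α-catenin, and its GFP reporter marks HSCs in bone marrow. It measured 5.71 and 5.64 log2 CPM in Id2+/+ A and B and 5.13 and 5.76 in Id2Δ/Δ A and B. Id2Δ/Δ A was low and Id2Δ/Δ B lay above both Id2+/+ libraries, so the groups overlapped (difference -0.23 ± 0.22, log2, SE, 95% confidence interval -0.75 to 0.29, limma adjusted p = 0.916). Without Id2Δ/Δ A the difference was 0.09. Fgd5 and Ctnnal1, both used as HSC reporters, were each lowest in Id2Δ/Δ A, but in Id2Δ/Δ B the first lay below both Id2+/+ libraries and the second above them. Ctnna1, the abundant α-catenin, was at 6.96 and 6.99 in Id2+/+ and 6.80 and 6.82 in Id2Δ/Δ (difference -0.17 ± 0.12).

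The genes of CD34, EPCR and CD27 overlapped between the genotypes and were lower in the B libraries, as were many genes. Cd34 (ENSMUSG00000016494.9, chr1:194938819-194961279, plus strand), a sialomucin, measured 8.54 and 8.31 log2 CPM in Id2+/+ A and B and 8.47 and 8.32 in Id2Δ/Δ A and B. It was the most abundant member by CPM although the surface antigen is low on long-term HSCs. Its difference between genotypes was -0.03 ± 0.12 (log2, SE), and the 95% confidence interval of -0.32 to 0.25 is the narrowest of the 10.

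Procr (ENSMUSG00000027611.12, chr2:155751117-155755471, plus strand), the receptor that holds protein C on the cell surface, measured 6.40 and 6.17 log2 CPM in Id2+/+ A and B and 6.30 and 6.15 in Id2Δ/Δ A and B. The difference between genotypes was -0.06 ± 0.15 (95% confidence interval -0.41 to 0.29). Its partner F2r, the thrombin receptor PAR1 through which the EPCR pathway signals, was at 7.26 and 7.30 in Id2+/+ and 7.52 and 7.24 in Id2Δ/Δ.

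Cd27 (ENSMUSG00000030336.14, chr6:125232622-125237010, minus strand), a receptor of the TNF receptor family, measured 6.95 and 6.76 log2 CPM in Id2+/+ A and B and 6.95 and 6.60 in Id2Δ/Δ A and B. The difference between genotypes was -0.08 ± 0.16 (95% confidence interval -0.45 to 0.29). For all 3 genes both B libraries were below both A libraries, which makes 3 of 10 members beside 16.8% of all genes. Esam was the 1 member with both B libraries above both A libraries, beside 16.1% of all genes. With so few members, these counts are not read as a pattern of the members.

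The B to A steps were small next to those of the neutrophil list. They were -0.22 and -0.15 (log2, Id2+/+ and Id2Δ/Δ) for Cd34, -0.22 and -0.15 for Procr, and -0.19 and -0.35 for Cd27, whereas the median of the neutrophil list was -1.47 in Id2+/+ and -1.92 in Id2Δ/Δ. Slamf1 (-0.08 and -0.16) and Cd9 (-0.04 and -0.08) also stepped down in both genotypes. Fgd5 stepped the other way within each genotype, by 0.31 and 0.41, and so did Esam, by 0.03 and 0.45. The part of the neutrophil genes, or of the letter, in these steps was not tested.

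**Figure D4:**
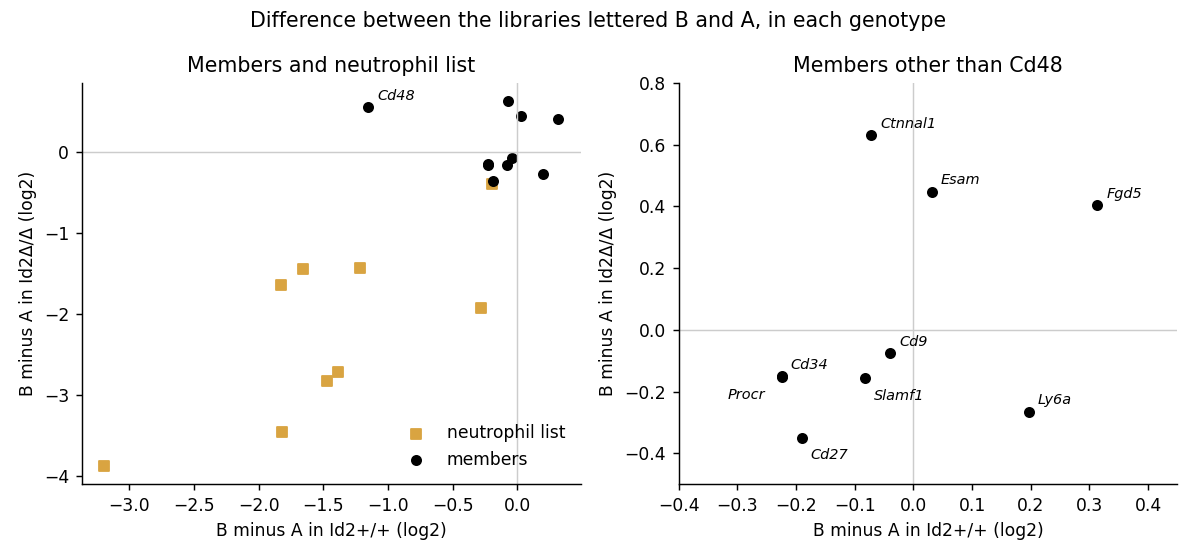
Difference between the B and the A library (log2) within Id2+/+ (x axis) and within Id2Δ/Δ (y axis). On the left are the 10 members (black circles, with Cd48 named) and the 9 tested genes of the neutrophil list (yellow squares), and on the right, on an enlarged scale, the members other than Cd48. All 9 neutrophil genes lie below 0 on both axes, and Cd34, Procr and Cd27 lie below 0 by 0.15 to 0.35. Slamf1 and Cd9 also lie below 0 on both axes, and Fgd5 and Esam lie above 0 on both.

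Adhesion and membrane organization are the roles of the last pair. Esam (ENSMUSG00000001946.14, chr9:37528078-37538319, plus strand), an adhesion molecule of endothelial tight junctions that also marks HSCs, measured 7.65 and 7.68 log2 CPM in Id2+/+ A and B and 7.45 and 7.90 in Id2Δ/Δ A and B. The Id2Δ/Δ libraries lay on either side of the Id2+/+ libraries, and the difference was 0.01 ± 0.16 (log2, SE, 95% confidence interval -0.36 to 0.38). Its relative Jam2, which also marks HSCs, measured 3.42 and 4.33 in Id2+/+ and 4.47 and 4.63 in Id2Δ/Δ, a difference of 0.68 ± 0.32 that did not pass.

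Cd9 (ENSMUSG00000030342.8, chr6:125460266-125494791, minus strand), a tetraspanin 223.3 kb from Cd27 that organizes receptors in the membrane and is abundant on megakaryocytes and platelets, measured 6.69 and 6.65 log2 CPM in Id2+/+ A and B and 6.85 and 6.78 in Id2Δ/Δ A and B. Both Id2Δ/Δ libraries were above both Id2+/+ libraries, by a difference of 0.14 ± 0.12 (log2, SE, 95% confidence interval -0.15 to 0.43, limma adjusted p = 0.910). Cd9 spanned 0.20 log2 units over the 4 libraries, the narrowest span of the 10. Cd81, the most abundant tetraspanin listed, was at 8.66 and 8.77 in Id2+/+ and at 8.53 and 8.87 in Id2Δ/Δ. Of the 6 tetraspanins tested besides Cd9, 0 were called, 0 separated the genotypes upward and 1 downward, with a median difference of 0.04 (log2). Ligands, coreceptors and signalling partners of the members gave 0 called of 10 tested, with 2 separated upward, 0 downward and a median difference of 0.12 (log2). For both lists, the shares of all tested genes were 19.0% upward and 15.8% downward.

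Megakaryocyte genes were set beside Cd9. Of 9 tested, 5 were higher in both Id2Δ/Δ libraries than in both Id2+/+ libraries and 1 was lower in both, 3 were higher at an unadjusted p under 0.05 and 0 were called, and the median difference was 0.20 (log2). Of all tested genes, 19.0% were higher in both Id2Δ/Δ libraries, 15.8% were lower in both, and 1.72% were higher at that unadjusted p. Pf4, a platelet chemokine, measured 6.13 and 6.68 log2 CPM in Id2+/+ A and B and 7.23 and 6.86 in Id2Δ/Δ A and B, Gp1bb, a subunit of the von Willebrand factor receptor, 3.17 and 3.42 against 4.27 and 3.82, and Clec1b, the podoplanin receptor, 1.40 and 1.40 against 3.66 and 2.20. The 1 that was lower in both Id2Δ/Δ libraries was Ppbp, at 1.98 and 1.82 log2 CPM in Id2+/+ and 1.47 and 1.55 in Id2Δ/Δ. Tubb1 (38 and 22 reads in Id2+/+ A and B, 0 and 32 in Id2Δ/Δ A and B) and Gp1ba (difference -0.03) were lower in the mean. The list summed to 416 and 404 CPM in Id2+/+ and to 496 and 498 CPM in Id2Δ/Δ. Several of these genes are also expressed in HSCs, as was Itga2b, the most abundant of the list, at 7.73, 7.40, 7.47 and 7.78. Their part in the Cd9 and Slamf1 values was not tested.

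None of the other HSC genes was called by limma. Of 27 tested, 3 were higher in both Id2Δ/Δ libraries, and 7 were lower in both, with a median difference of -0.02 (log2) beside 0.01 for all genes. Surface genes of multipotent and committed progenitors gave 1 of 10 higher and 2 of 10 lower in both Id2Δ/Δ libraries, with 0 called. For both lists, the shares of all tested genes were 19.0% higher and 15.8% lower in both. Among the progenitor genes Tfrc, the transferrin receptor, was at 5.27 and 5.24 in Id2+/+ and 5.77 and 5.79 in Id2Δ/Δ (difference 0.53 ± 0.15, SE, not called), and Cd33 was low throughout, at -0.69 to 0.72 log2 CPM.

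The remaining lists of other cells had lower sums than the neutrophil, endothelial and megakaryocyte lists in every library. Erythroid genes summed to 39.3, 26.5, 29.2 and 40.2 CPM in Id2+/+ A, Id2+/+ B, Id2Δ/Δ A and Id2Δ/Δ B, monocyte and macrophage genes to 45.6, 44.1, 44.2 and 45.8 CPM, and B, T and NK cell genes to 94.9, 86.8, 116 and 85.7 CPM. Mast cell and basophil genes summed to 6.20, 2.96, 11.8 and 4.11 CPM, and the high value in Id2Δ/Δ A came from Prss34, a basophil protease, which had 0 reads in both Id2+/+ libraries. None of these lists had a called gene in limma, and their part in the members' values was not tested.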

How the data were processed

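HSC RNA was sequenced in 4 libraries. The authors deposited log2 CPM values of 19354 genes, whose columns share 1 distribution (quantile normalization) and sum to 999980 to 999996 CPM. The submitters' processing notes name CASAVA 1.8.4, Trimmomatic 0.30, TopHat2 2.0.8, RSEM and STAR, with the builds mm9 and NCBIM37, without roles. Gene IDs with version matched GENCODE M21 (GRCm38) for 82.0% of rows, so positions and exon lengths were taken from GENCODE M21 by gene ID and are GRCm38. Strand use in counting is not given in the sources used here, and Cd34 and Cd9 share exon bases with genes on the other strand.

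The test was that of limma 3.58.1 under R 4.3.3, fitted to the 4 columns with a genotype term alone and an abundance trend in eBayes, for every gene averaging 1 CPM or more, two-sided, with Benjamini-Hochberg adjustment over 15895 genes and a threshold of 0.05. Below 32 CPM, reads were recovered from the rank of each distinct value within a library, and depth from the median of (reads + 0.5) divided by CPM. The limit for a count of 0 was 3 reads. Depth limits only the low genes, of which Cd48 is the one member.

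Replicates 1 and 2 of the labels are the libraries lettered A and B. The members and lists were chosen with earlier results of these data known. Besides the members, Kit and Flt3, the genes named were those of each list whose groups do not overlap with a difference of at least 0.5 (log2), at most 4 a list, and the most abundant of each list, and not all of them are printed, 1 of which is not reported here. Cd244, Ly9, Ly6c2, Hlf, Mecom, Stab2, Fgd3, Fgd4, F2r, Ppbp, Tubb1 and Gp1ba fall outside that rule and were chosen after their values were seen. Alternatives were other filters (none, or a mean of at least 10 CPM), a pseudocount of 1 CPM, median-ratio rescaling, no abundance trend, each library left out, and the replicate number as a block. A correction for transcript length (natural spline with 5 degrees of freedom) was added after seeing the data. RefSeq promoter windows for Ly6a and Esam were not used here.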

Additional observations from a re-analysis of the deposited data

How the results depend on the processing

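No alternative brought a member, or any of the 121 tested genes of the other lists, past an adjusted p of 0.05, so the count of members called was 0 throughout. The adjusted p of Fgd5 was between 0.266 and 1.00. At an unadjusted p under 0.05, 742 genes and 1 member, Fgd5, would be called, and Fgd5 lost that without the abundance trend, without Id2+/+ B and without Id2Δ/Δ A. Leaving out 1 library gave 0 genes in every case. It left 4 to 8 members with groups that do not overlap, against 3 of 10 with all libraries, which a lone library in a group makes easier. The range of differences (log2) with 1 library left out was 0.18 to 0.34 for Slamf1, -1.36 to -0.21 for Cd48, -0.15 to 0.078 for Cd34, 0.01 to 0.28 for Ly6a, -0.17 to 0.054 for Procr, -0.77 to -0.37 for Fgd5, -0.54 to 0.087 for Ctnnal1, -0.21 to 0.23 for Esam, -0.25 to 0.10 for Cd27, 0.11 to 0.18 for Cd9 and 0.51 to 1.58 for the gap between Slamf1 and Cd48. Cd34, Procr, Esam and Cd27 changed sign without Id2+/+ A and without Id2Δ/Δ B, and Ctnnal1 without Id2Δ/Δ A. Esam was -0.0031 after median-ratio rescaling. With the length correction, chosen after seeing the data, Cd34 was 0.021, both with and without the replicate block. The cause was not tested.

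The replicate numbers did not pair the libraries by the labels, and same-numbered libraries deviated from their group means with a correlation of 0.06 over 15895 genes. With the replicate block limma called 1 gene, with or without the length correction, against 0, and it was no member. The block changed no direction of a member, and the adjusted p of Fgd5 was 0.791 with it.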
